A study of Mus musculus with 14 samples.

Results

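A set of 10 genes of the type I interferon antiviral response was followed in liver arrays: Rsad2, Ifit1, Ifit2, Ifit3, Isg15, Usp18, Irf7, Zbp1, Bst2 and Lgals3bp. They were chosen by name, and every probe set that the platform annotation gave to 1 of these symbols was taken. This found 12 probe sets of 22690 on the array, covering 9 of the 10 genes, with 3 probe sets for Rsad2 and 2 for Zbp1. The remaining gene, Isg15, had only 1 probe set, which the annotation gives to both Isg15 and Gm9706. Its values are therefore reported apart and enter no count of probe sets called. They enter only the tally of values under alternative settings. Of the 12 probe sets, 11 were bright enough to be tested among 13575 in all, and the Ifit2 probe set was not. The 14 arrays held liver RNA of C57BL/6J mice with diet-induced obesity (DIO), a state that all 3 groups shared. Mice of the first group (n = 5) had received an adenovirus with an shRNA, an RNA hairpin that silences a gene, against Jnk1, the kinase encoded by Mapk8. The second group (n = 4, numbered 1, 2, 3 and 5) had received an adenovirus with an shRNA against green fluorescent protein (GFP), which mice lack, and the last group (n = 5) vehicle. The labels give neither the age or sex of the mice nor the dose of either virus, its promoter or the time after injection, and they do not say that each array is a separate mouse, so p-values measure the spread between these arrays. A difference between the viruses can therefore not be told apart from a difference in their dose.

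Type I interferons are secreted proteins that cells make when sensors find viral nucleic acid. They bind the Ifnar1 and Ifnar2 receptor, the kinases Jak1 and Tyk2 are activated, and a complex that holds Stat2 and Irf9 then binds a short DNA motif, the interferon-stimulated response element, in front of antiviral genes. Hepatocytes, Kupffer cells and other liver cells all respond to interferon, and a virus vector is itself a known trigger of this response.

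Promoter sequence was examined to show which of the 10 genes carry that motif close to their start. Windows from 250 bases before to 50 bases after the annotated start were taken from RefSeq (GRCm38.p6), which held 8 of the 10 genes (all but Usp18 and Zbp1). The core searched was GAAA, any 2 bases and GAAA again, on either strand (TTTC, any 2 bases and TTTC on the other), with overlapping matches counted. It occurred in 5 of these 8 genes, against 1131 of 32851 windows of the same length (3.44%). Rsad2 had 1 match, at -120 from the start, on the opposite strand. Ifit1 had 2, at -104 and -85, and Ifit3 had 2, at -156 and -122, also on the opposite strand. Isg15 had 3 overlapping matches, at -78, -72 and -66, and Bst2 had 2 overlapping ones, at -130 and -124, on the gene's own strand. Ifit2, Irf7 and Lgals3bp had no match, which says only that these letters were not in these windows. The 200 bases before the start are printed for the Ifit genes that stood side by side in the results below and for the genes that differed between the viruses, read 5′ to 3′ on the gene's strand, with the matches in capitals. The positions are chr12:26456453-26456652 (minus strand) for Rsad2, chr19:34640689-34640888 (plus) for Ifit1, chr19:34583329-34583528 (plus) for Ifit3, chr8:71537473-71537672 (minus) for Bst2 and chr11:118401960-118402159 (minus) for Lgals3bp.
Rsad2: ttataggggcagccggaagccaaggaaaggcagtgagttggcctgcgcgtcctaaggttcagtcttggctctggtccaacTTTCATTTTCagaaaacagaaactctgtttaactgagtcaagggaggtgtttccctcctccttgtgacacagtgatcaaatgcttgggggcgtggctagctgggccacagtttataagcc
Ifit1: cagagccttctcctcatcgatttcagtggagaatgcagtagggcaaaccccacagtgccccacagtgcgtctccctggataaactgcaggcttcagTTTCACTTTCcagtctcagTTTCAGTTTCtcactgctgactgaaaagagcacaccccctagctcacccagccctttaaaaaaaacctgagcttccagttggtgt
Ifit3: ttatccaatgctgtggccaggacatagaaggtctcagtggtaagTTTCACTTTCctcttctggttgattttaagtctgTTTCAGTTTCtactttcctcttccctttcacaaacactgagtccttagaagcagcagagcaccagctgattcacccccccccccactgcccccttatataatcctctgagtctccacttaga
Bst2: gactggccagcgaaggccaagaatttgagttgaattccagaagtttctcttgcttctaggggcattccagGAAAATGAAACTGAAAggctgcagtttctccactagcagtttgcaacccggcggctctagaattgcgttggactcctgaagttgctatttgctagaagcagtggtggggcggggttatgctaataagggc
Lgals3bp: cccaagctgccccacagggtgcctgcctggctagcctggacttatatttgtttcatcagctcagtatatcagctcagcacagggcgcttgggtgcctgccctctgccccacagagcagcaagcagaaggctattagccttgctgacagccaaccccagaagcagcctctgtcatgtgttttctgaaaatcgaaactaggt
Ifit1 and Ifit3 share the layout of 2 separate matches on the opposite strand, Rsad2 has a single one, and in Bst2 the 2 matches run into each other. Lgals3bp, the gene without a match among the 5 printed, was among those that differed between the viruses, and Ifit1 and Ifit3 were not. Whether a match goes with such a difference was not tested.

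**Figure D1:**
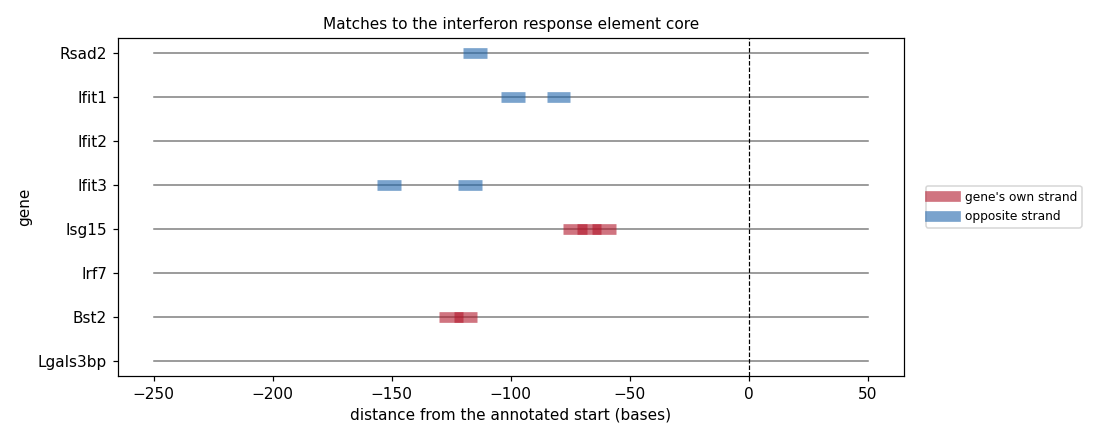
Matches to the interferon-stimulated response element core in the promoter windows of the 8 genes with a RefSeq entry; the x axis is the distance from the annotated start in bases, each grey line is 1 window, and blocks are matches on the gene's own strand (red) or the opposite strand (blue). All matches lie before the start, between -156 and -66, in Rsad2, Ifit1, Ifit3, Isg15 and Bst2.

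Some properties of the whole series bear on these genes. The targeted gene was lower as labelled on 2 Mapk8 probe sets, with log2 fold changes of -1.31 ± 0.11 (SE) and -1.12 ± 0.22 for Jnk1 over GFP shRNA (adjusted p = 3.5e-07 and 0.000819). Another probe set gave -0.12 ± 0.14 (adjusted p = 0.561). Array 2 of the GFP group had a median deposited intensity of 58.3, whereas the other 13 lay between 41.8 and 50.5. The bacterial spike-in controls averaged 8.36 ± 0.32 log2 (SD) on Jnk1 arrays, against 8.91 ± 0.08 on GFP arrays and 8.91 ± 0.10 on vehicle arrays. Markers of hepatocytes were bright in all groups, with summed intensities of 26589 to 28297, 28171 to 30787 and 27826 to 31735 in the Jnk1, GFP and vehicle groups. In bulk liver, more RNA per cell and more cells of one type cannot be told apart.

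Nearly all of the antiviral genes were higher with either virus than with vehicle, and 3 of them were higher with Jnk1 than with GFP shRNA. With GFP shRNA, 10 of the 11 tested probe sets were higher than with vehicle and 0 lower, where 2.58% of all tested probe sets were called (2.05% higher and 0.53% lower). With Jnk1 shRNA, 11 of 11 were higher than with vehicle, where 37.6% of all were called (18.9% higher, 18.7% lower). Between the viruses, 5 of 11 were higher with Jnk1 shRNA and 0 lower, where 33.1% of all were called (17.3% higher, 15.8% lower). These 5 are the 3 Rsad2 probe sets, Bst2 and Lgals3bp, so they stand for 3 of 8 genes. A call here is an adjusted p under 0.05 in limma with Benjamini-Hochberg adjustment over all 13575 probe sets.

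The median log2 fold change of the 11 probe sets was 0.58 for Jnk1 over GFP shRNA (range -0.48 to 2.42), 2.20 for Jnk1 shRNA over vehicle (1.42 to 4.00) and 1.58 for GFP shRNA over vehicle (0.71 to 3.78). Over all tested probe sets the medians were -0.01, -0.02 and -0.02. The arrays of the groups did not overlap for 4 of the 11 probe sets between the viruses (28.1% of all tested), for 11 between Jnk1 shRNA and vehicle (27.7%) and for 10 between GFP shRNA and vehicle (6.3%). Both virus comparisons use the same 5 vehicle arrays, and a probe set that passed the brightness filter only through the virus arrays, such as the dimmer one of Zbp1, had to differ from vehicle, so these counts describe and do not test the list.

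**Figure D2:**
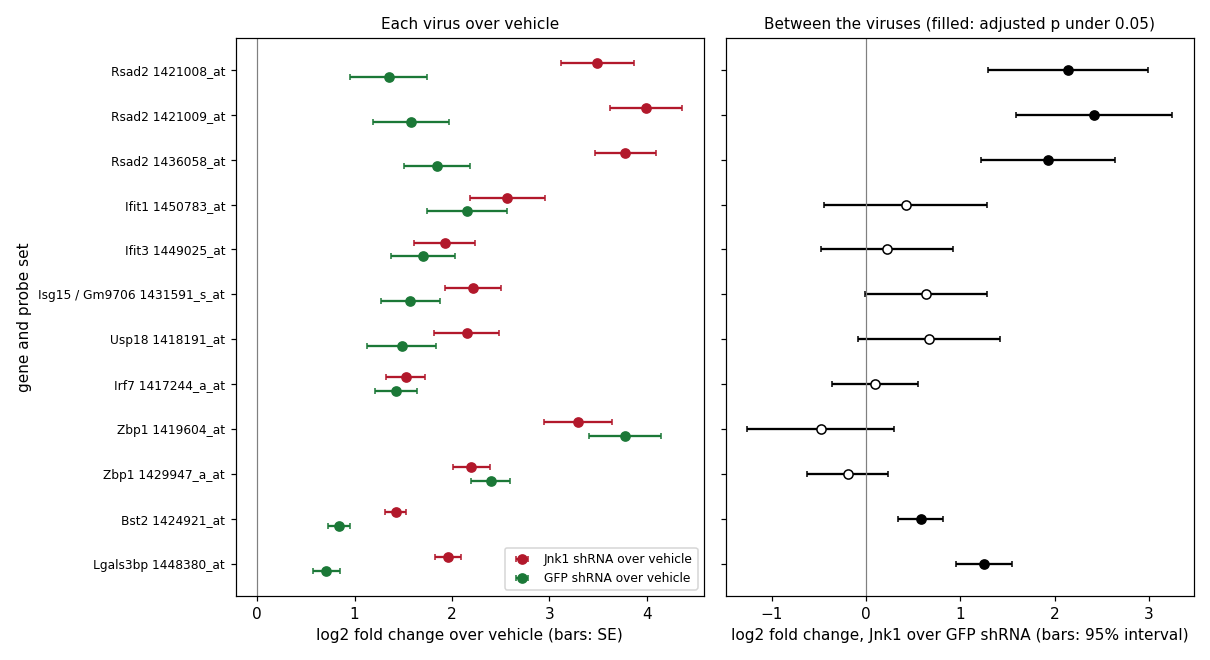
Log2 fold changes of the tested probe sets (rows), with Isg15 / Gm9706 as the shared probe set; left, each virus over vehicle with SE bars, and right, Jnk1 over GFP shRNA with 95% intervals, filled where the adjusted p is under 0.05. All points on the left lie above 0; on the right the 3 Rsad2 probe sets, Bst2 and Lgals3bp lie clear of 0 and both Zbp1 probe sets lie below it.

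Rsad2 encodes viperin, an enzyme that turns a nucleotide into a chain terminator of viral RNA synthesis. Its brightest probe set read 1651, 2417, 3069, 2904 and 3564 on the 5 Jnk1 arrays, against 438, 1634, 468 and 677 on the 4 GFP arrays and 295, 170, 124, 184 and 227 on the 5 vehicle arrays (quantile-normalized intensity). The 3 groups did not overlap, although GFP array 2 was just below the lowest Jnk1 array. Mean log2 intensity was 11.36 ± 0.43 with Jnk1 shRNA, 9.43 ± 0.87 with GFP shRNA and 7.58 ± 0.47 with vehicle (SD, n = 5, 4 and 5). This was 3.82-fold higher with Jnk1 than with GFP shRNA (log2 1.93 ± 0.34 SE, 95% interval 1.22 to 2.64, adjusted p = 0.000352) and 13.7-fold higher than with vehicle (3.78 ± 0.32, adjusted p = 1.7e-07). GFP shRNA was 3.60-fold above vehicle (1.85 ± 0.34, adjusted p = 0.00549).

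The other 2 Rsad2 probe sets gave the same order of the groups, with wider spread in both virus groups and narrower spread with vehicle. Probe set 1421009_at read 618, 805, 1303, 1151 and 1684 with Jnk1 shRNA, against 104, 580, 142 and 171 with GFP shRNA and 96.7, 57.6, 55.1, 56.8 and 69.5 with vehicle. Probe set 1421008_at read 528, 725, 1272, 1160 and 1701 with Jnk1 shRNA, against 130, 633, 154 and 200 with GFP shRNA and 119, 81.7, 61.8, 90.2 and 98.4 with vehicle. On the second of these, GFP array 2 lay above the lowest Jnk1 array, so those groups overlapped. Jnk1 over GFP shRNA was 2.42 ± 0.39 log2 (5.34-fold, adjusted p = 0.000194) on 1421009_at and 2.14 ± 0.40 (4.42-fold, adjusted p = 0.000622) on 1421008_at.

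Rsad2 was thus higher with Jnk1 than with GFP shRNA on each of its probe sets, while the step of GFP shRNA over vehicle was less firm. That step was 1.58 ± 0.39 log2 (2.99-fold, adjusted p = 0.0429) on 1421009_at and 1.35 ± 0.40 (adjusted p = 0.0958) on 1421008_at. Without GFP array 2, GFP over vehicle was 1.43 on the brightest probe set (adjusted p = 0.009), 1.06 on 1421009_at (adjusted p = 0.070) and 0.85 on 1421008_at (adjusted p = 0.207), and Jnk1 over GFP shRNA was 2.35, 2.94 and 2.64. The call of 1421009_at over vehicle was also lost without any 1 of vehicle arrays 2 to 5, GFP arrays 3 and 5 and Jnk1 arrays 2, 3 and 4 (values of 1.52 to 1.73, adjusted p up to 0.0968). The same happened without the filter (adjusted p = 0.095), with a pseudocount of 16 (0.053), without the intensity trend (0.075) and with these 2 groups fitted alone (0.088).

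**Figure D3:**
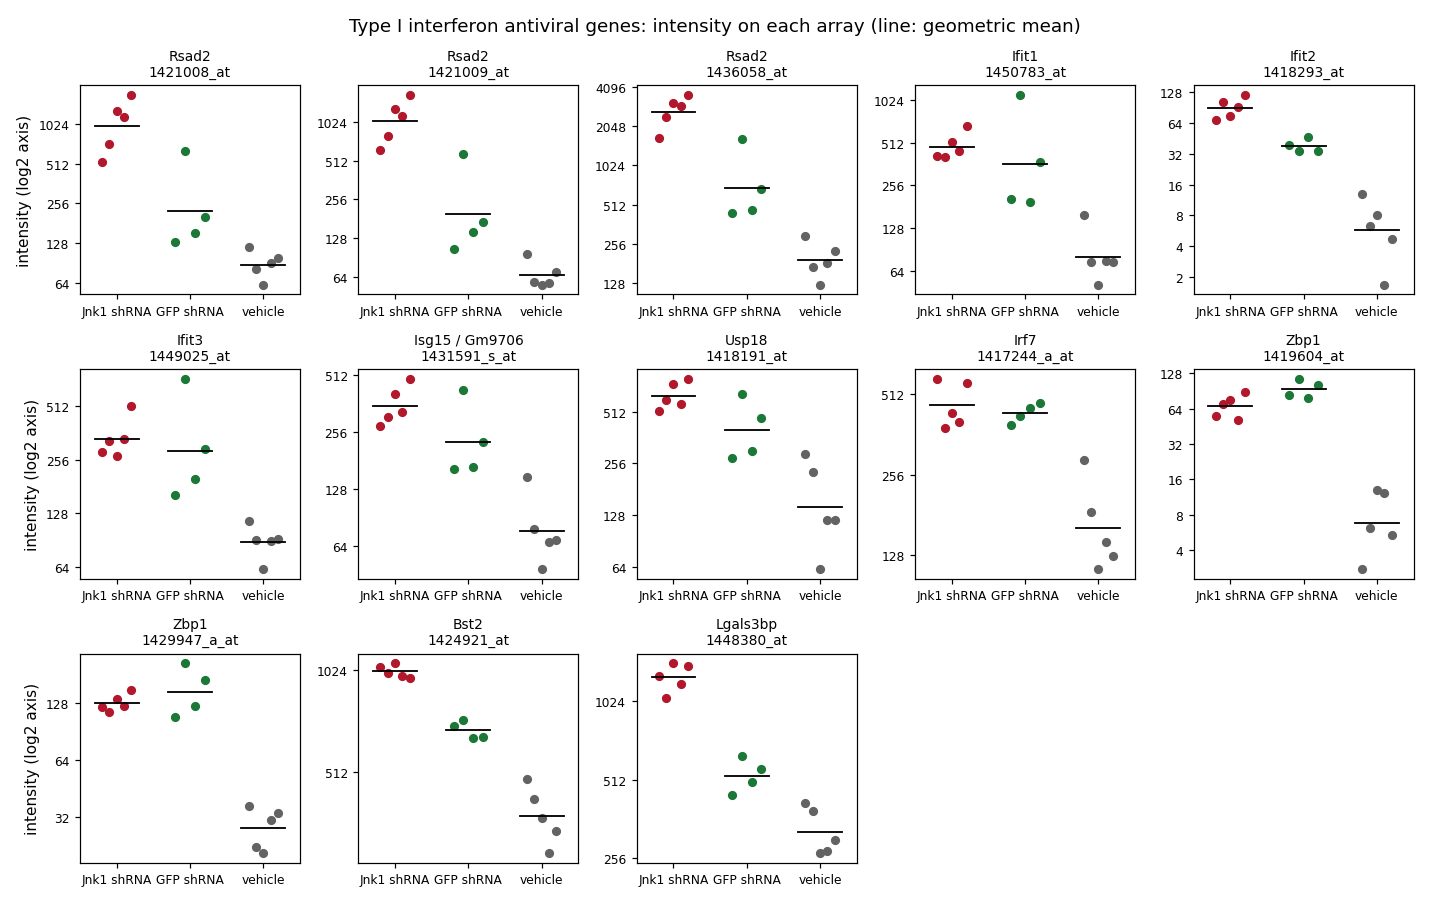
Quantile-normalized intensity (log2 axis) of each probe set on every array, 1 panel per probe set, with Jnk1 shRNA (5 points), GFP shRNA (4) and vehicle (5) from left to right, arrays in order of replicate number and a line at the geometric mean. By group mean every gene but Zbp1 is highest with Jnk1 shRNA and lowest with vehicle, though Irf7 and Zbp1 stand at like levels under both viruses. GFP array 2, the second green point, is the highest of its group in Rsad2, Ifit1 and Ifit3.

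The Ifit genes encode proteins that bind foreign RNA and block its translation. Ifit1, which recognizes RNA without the cap methylation of the host, read 414, 403, 512, 446 and 668 with Jnk1 shRNA, against 206, 1107, 196 and 371 with GFP shRNA and 159, 74.6, 51.5, 76.0 and 74.4 with vehicle. Both viruses lay above every vehicle array, and GFP array 2 lay above all 5 Jnk1 arrays while the other 3 lay below them. Ifit1 was 5.93-fold higher with Jnk1 shRNA than with vehicle (2.57 ± 0.39 log2, adjusted p = 6.81e-05) and 4.44-fold higher with GFP shRNA than with vehicle (2.15 ± 0.41, adjusted p = 0.00836). Between the viruses it gave 0.42 ± 0.41 (95% interval -0.45 to 1.29, adjusted p = 0.461). Without GFP array 2 this became 0.96 and passed (adjusted p = 0.022), with GFP over vehicle at 1.61, so the comparison of the viruses rests on that array.

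Ifit3, a partner protein of the same family, behaved like Ifit1. It read 285, 327, 269, 336 and 512 with Jnk1 shRNA, against 163, 728, 199 and 293 with GFP shRNA and 117, 91.0, 62.3, 89.5 and 92.4 with vehicle. Again GFP array 2 was the highest of all 14, and each virus array exceeded each vehicle array. Ifit3 was 3.80-fold higher with Jnk1 shRNA than with vehicle (1.92 ± 0.31, adjusted p = 0.000135) and 3.25-fold higher with GFP shRNA (1.70 ± 0.33, adjusted p = 0.00929). The viruses gave 0.22 ± 0.33 (95% interval -0.48 to 0.92, adjusted p = 0.641), which was 0.67 without GFP array 2 (adjusted p = 0.037) and -0.05 without GFP array 1 (adjusted p = 0.920).

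Ifit2, a relative that RefSeq places beside Ifit3 on chromosome 19, lay below the brightness filter but separated the 3 groups completely. It read 67.6, 102, 75.4, 91.2 and 121 with Jnk1 shRNA, against 39.1, 34.3, 46.4 and 34.1 with GFP shRNA and 12.9, 6.29, 7.98, 1.67 and 4.73 with vehicle. Unlike in Ifit1 and Ifit3, GFP array 2 was not high. In the fit without the filter, Jnk1 over GFP shRNA was 1.23 ± 0.41 (adjusted p = 0.0511), which did not pass. In that fit Jnk1 shRNA over vehicle was 3.97 ± 0.39 (adjusted p = 3.74e-06) and GFP shRNA over vehicle 2.74 ± 0.41 (adjusted p = 0.00355). The vehicle values lie under 28.4, the lowest mean intensity that was tested, so the size of both folds over vehicle is uncertain.

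Bst2 and Lgals3bp separated all 3 groups. Bst2 encodes tetherin, which holds budding enveloped viruses at the cell surface. It read 1046, 1003, 1074, 979 and 972 with Jnk1 shRNA, against 696, 727, 645 and 649 with GFP shRNA and 488, 426, 374, 293 and 342 with vehicle, and no groups overlapped. Mean log2 intensity was 9.99 ± 0.06, 9.41 ± 0.08 and 8.57 ± 0.28 in that order (SD). Bst2 was 1.49-fold higher with Jnk1 than with GFP shRNA (0.58 ± 0.11, 95% interval 0.34 to 0.82, adjusted p = 0.000878) and 2.68-fold higher than with vehicle (1.42 ± 0.11, adjusted p = 4.64e-08). GFP shRNA was 1.79-fold above vehicle (0.84 ± 0.11, adjusted p = 0.00043). The log2 difference between the viruses was 0.44 ± 0.17 and lost its call (adjusted p = 0.104) once the spike-in signal was added to the model. That signal was lower on Jnk1 arrays, so this model cannot fully tell it apart from the Jnk1 virus, and the standard error was wider.

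Lgals3bp encodes a secreted glycoprotein that binds galectins and is induced by interferon. It read 1276, 1052, 1429, 1185 and 1396 with Jnk1 shRNA, against 448, 629, 501 and 559 with GFP shRNA and 418, 386, 267, 273 and 300 with vehicle. The Jnk1 arrays stood far above the rest, and the lowest GFP array was only slightly above the highest vehicle array. Mean log2 intensity was 10.30 ± 0.18 with Jnk1 shRNA, 9.05 ± 0.21 with GFP shRNA and 8.34 ± 0.30 with vehicle (SD). Lgals3bp was 2.38-fold higher with Jnk1 than with GFP shRNA (log2 1.25 ± 0.14, 95% interval 0.95 to 1.55, adjusted p = 6.58e-06). This log2 fold change was 1.13 once the spike-in signal was added to the model (adjusted p = 0.003). Lgals3bp was 3.89-fold higher with Jnk1 shRNA than with vehicle (1.96 ± 0.13, adjusted p = 1.94e-08) and 1.64-fold higher with GFP shRNA (0.71 ± 0.14, adjusted p = 0.0109).

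Zbp1, a sensor of Z-form nucleic acid that can start necroptotic cell death, was raised by both viruses and did not pass between them. Its brighter probe set read 122, 115, 135, 124 and 150 with Jnk1 shRNA, against 108, 209, 124 and 170 with GFP shRNA and 36.5, 22.2, 20.6, 30.9 and 33.7 with vehicle. Every virus array exceeded every vehicle array, and the Jnk1 arrays fell within the range of the GFP arrays. This was 4.59-fold higher with Jnk1 shRNA than with vehicle (2.20 ± 0.19, adjusted p = 2.59e-07) and 5.27-fold higher with GFP shRNA than with vehicle (2.40 ± 0.20, adjusted p = 4.1e-06). Between the viruses the log2 fold change was -0.20 ± 0.20 (95% interval -0.63 to 0.23, adjusted p = 0.486). The lower vehicle values lie under 28.4, so the size of these folds over vehicle is uncertain too. The second probe set read 55.8, 69.5, 75.5, 51.4 and 89.2 with Jnk1 shRNA, against 83.0, 115, 78.8 and 102 with GFP shRNA and 2.76, 6.13, 13.1, 12.4 and 5.35 with vehicle. It gave -0.48 ± 0.37 between the viruses (95% interval -1.27 to 0.30, adjusted p = 0.336). Over vehicle it gave 3.30 ± 0.35 with Jnk1 shRNA and 3.78 ± 0.37 with GFP shRNA (adjusted p = 1.93e-06 and 1.33e-05), against vehicle values too dim for the size of the fold to be sure. Zbp1 was the only one of the 8 tested genes whose fold between the viruses was below 0.

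Irf7, the transcription factor that amplifies interferon gene expression, stood at close levels under both viruses. It read 584, 382, 437, 402 and 563 with Jnk1 shRNA, against 394, 425, 455 and 474 with GFP shRNA and 291, 186, 114, 143 and 127 with vehicle. The virus groups overlapped fully, and both lay above the highest vehicle array. Irf7 was 2.88-fold higher with Jnk1 shRNA than with vehicle (1.52 ± 0.20, adjusted p = 2.09e-05) and 2.69-fold higher with GFP shRNA (1.43 ± 0.22, adjusted p = 0.00132). Between the viruses it gave 0.10 ± 0.22 (95% interval -0.36 to 0.55, adjusted p = 0.762). Once the spike-in signal was added to the model this was -0.13 (adjusted p = 0.848).

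Usp18 and Isg15 work on the same modification: Isg15 is a ubiquitin-like protein that is joined to other proteins, and Usp18 removes it and also dampens signalling at the interferon receptor. Usp18 read 517, 595, 737, 568 and 795 with Jnk1 shRNA, against 277, 645, 303 and 468 with GFP shRNA and 292, 227, 62.1, 120 and 120 with vehicle. The Jnk1 arrays cleared the vehicle arrays, whereas vehicle array 1 lay above the lowest GFP array. Usp18 was 4.44-fold higher with Jnk1 shRNA than with vehicle (2.15 ± 0.33, adjusted p = 9.18e-05) and 2.79-fold higher with GFP shRNA than with vehicle (1.48 ± 0.35, adjusted p = 0.0347). Between the viruses it gave 0.67 ± 0.35 (95% interval -0.08 to 1.42, adjusted p = 0.163), which passed with arrays scaled to a common median (0.89, adjusted p = 0.035), with array weights (0.82, adjusted p = 0.046) and with the viruses fitted alone (0.67, adjusted p = 0.038). The call of GFP shRNA over vehicle was lost without GFP array 2 (1.25) or 5 (1.41) or vehicle array 3 (1.18), 4 (1.42) or 5 (1.42), at adjusted p up to 0.112. It was also lost without the filter (adjusted p = 0.080), without the intensity trend (0.065) and with GFP shRNA and vehicle fitted alone (0.110).

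The probe set shared by Isg15 and Gm9706 read 273, 307, 403, 328 and 488 with Jnk1 shRNA, against 162, 426, 167 and 227 with GFP shRNA and 147, 78.6, 48.0, 67.0 and 68.1 with vehicle. Its Jnk1 arrays overlapped the GFP arrays only through GFP array 2. It was 2.21 ± 0.29 log2 higher with Jnk1 shRNA than with vehicle (adjusted p = 1.56e-05) and 1.57 ± 0.30 higher with GFP shRNA (adjusted p = 0.00916). The viruses gave 0.64 ± 0.30 (95% interval -0.01 to 1.28, adjusted p = 0.121). This difference passed without GFP array 2 (0.94, adjusted p = 0.017), with arrays scaled to a common median (0.84, adjusted p = 0.017) and with array weights (0.89, adjusted p = 0.010).

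The same arrays were often the highest or lowest of their group. Of the 12 probe sets, GFP array 2 was the highest GFP array in 10 and GFP array 1 the lowest in 8. Jnk1 array 5 was the highest of its group in 9, vehicle array 1 the highest of its group in 11, and vehicle array 3 the lowest in 9. The median over the 8 tested genes, each relative to its vehicle mean, was 1.92, 1.96, 2.20, 1.96 and 2.45 log2 on the 5 Jnk1 arrays, against 1.07, 2.54, 1.22 and 1.72 on the 4 GFP arrays and 0.51, 0.10, -0.51, -0.13 and -0.11 on the 5 vehicle arrays. The Jnk1 arrays were thus close together, and 3 of the 4 GFP arrays lay below all of them while GFP array 2 lay above them all. Array 2 of the GFP group also had the highest median intensity of all arrays, and what part this has in its antiviral values was not tested.

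**Figure D4:**
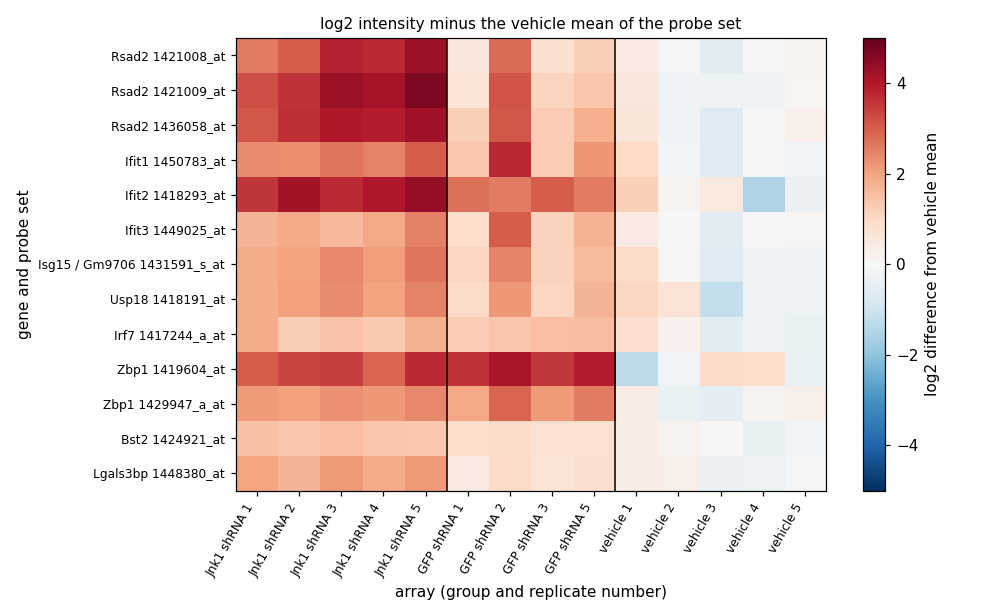
Log2 intensity of each probe set (rows) minus its vehicle mean on every array (columns), with Jnk1 shRNA, GFP shRNA and vehicle from left to right. Red is higher than the vehicle mean; the Rsad2 rows separate the Jnk1 arrays from 3 of the 4 GFP arrays, the Zbp1 and Irf7 rows are of like colour under both viruses, and the column of GFP array 2 is darker than those of the other GFP arrays in the Rsad2, Ifit1 and Ifit3 rows.

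The rest of the type I interferon pathway was taken from 6 lists by role, with 83 genes listed and 50 tested. Of these 50, 5 rose and 9 fell with Jnk1 against GFP shRNA, where 17.3% of all tested probe sets were called higher and 15.8% lower, so neither count stood out from those shares. With Jnk1 shRNA against vehicle 18 rose and 8 fell (18.9% and 18.7% over all), and with GFP shRNA against vehicle 17 rose and 0 fell (2.05% and 0.53% over all). The median log2 fold changes were -0.16, 0.24 and 0.41 in that order.

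Few of the interferon ligand genes could be measured. Of 15 listed, 9 had a probe set and 2 were tested. Ifna2 fell with Jnk1 against GFP shRNA (log2 -0.62 ± 0.22, adjusted p = 0.0377), at intensities of 21.6 to 46.9 with Jnk1 shRNA, 46.4 to 65.3 with GFP shRNA and 58.9 to 89.4 with vehicle. This call was lost without any 1 of GFP arrays 1, 2 and 5 and Jnk1 arrays 2 and 4 (-0.72 to -0.42 over all arrays left out, adjusted p up to 0.0907), and without the filter (adjusted p = 0.0705). Ifna2 also fell with Jnk1 shRNA against vehicle (log2 -0.90 ± 0.20, adjusted p = 0.00233). Ifna1 gave -0.51 (adjusted p = 0.170) between the viruses and 0.42 (adjusted p = 0.497) for GFP shRNA over vehicle. Ifnb1, the interferon beta gene, named after its values were seen, lay below the filter at 14.9 to 24.4, 20.7 to 55.4 and 17.5 to 33.8 in the Jnk1, GFP and vehicle groups, ranges that overlap. No ligand gene was called higher with either virus than with vehicle.

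Among the 6 tested genes of the receptor and its signalling chain, the kinase gene Jak1 fell with Jnk1 against GFP shRNA and Stat2 rose. Jak1 ranged over 252 to 310 with Jnk1 shRNA, 425 to 485 with GFP shRNA and 362 to 427 with vehicle. Its difference between the viruses was -0.70 ± 0.08 (adjusted p = 8.67e-06), and GFP shRNA over vehicle gave 0.26 (adjusted p = 0.119). Stat2, a subunit of the complex that binds the response element, ranged over 122 to 195, 112 to 126 and 70.0 to 90.2 in the same order. It gave 0.37 ± 0.13 between the viruses (adjusted p = 0.0356) and 0.57 ± 0.13 for GFP shRNA over vehicle (adjusted p = 0.0229). Irf9, the DNA-binding subunit, gave 0.59 ± 0.14 for GFP shRNA over vehicle (adjusted p = 0.0329) and -0.26 between the viruses (adjusted p = 0.170).

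The receptor gene Ifnar2 fell with Jnk1 shRNA against vehicle (log2 -0.23 ± 0.08, adjusted p = 0.0249) and gave -0.12 for GFP shRNA over vehicle (adjusted p = 0.506), and Tyk2 gave -0.23 between the viruses (adjusted p = 0.237). Both Stat2 calls and the Irf9 call were each lost in 6 of the 14 fits that left out 1 array. Stat2 between the viruses was lost without GFP array 1, 3 or 5 or Jnk1 array 1, 3 or 5 (0.28 to 0.45 over all arrays left out, adjusted p up to 0.0951). It was also lost on arrays as deposited (0.36, adjusted p = 0.0515), without the filter (0.37, adjusted p = 0.0524) and once the spike-in signal was added to the model (0.21, adjusted p = 0.513). Stat2 over vehicle was lost without GFP array 1, 2 or 5 or vehicle array 3, 4 or 5 (0.52 to 0.62, adjusted p up to 0.064), and Irf9 without GFP array 1, 3 or 5 or vehicle array 2, 3 or 5 (0.52 to 0.68, adjusted p up to 0.0903). With arrays scaled to a common median, Stat2 over vehicle was 0.50 (adjusted p = 0.054) and Irf9 0.51 (adjusted p = 0.0873), and neither passed. Jak1 kept its call without any single array.

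Among sensors and the steps that induce interferon, 3 of 9 tested genes rose with GFP shRNA over vehicle (2.05% called higher over all). With Jnk1 against GFP shRNA 2 of the 9 fell, where 15.8% of all were called lower, so nothing is read from that count. With Jnk1 shRNA over vehicle 3 rose and 2 fell (18.9% and 18.7% over all). Ifih1, which encodes the RNA sensor MDA5, was higher with GFP shRNA than with vehicle by 0.85 ± 0.13 (adjusted p = 0.00148) and gave 0.01 between the viruses (adjusted p = 0.963). Dhx58, a regulator of RNA sensing, gave 0.88 ± 0.21 for GFP shRNA over vehicle (adjusted p = 0.0317) and 0.45 between the viruses (adjusted p = 0.111). Tbk1, the kinase that activates Irf3 and Irf7, gave 0.46 ± 0.10 over vehicle (adjusted p = 0.0252) and -0.22 between the viruses (adjusted p = 0.119). The calls of Dhx58 and Tbk1 were lost without GFP array 2 or 5 or vehicle array 5, that of Dhx58 also without GFP array 1 or 3 or vehicle array 3 or 4 (0.76 to 1.06, adjusted p up to 0.0972) and that of Tbk1 also without vehicle array 1 or 2 (0.39 to 0.52, adjusted p up to 0.0849). With arrays scaled to a common median Tbk1 gave 0.32 (adjusted p = 0.232), and without the filter Dhx58 had an adjusted p of 0.0662.

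Myd88, the adaptor of most Toll-like receptors, fell with Jnk1 against GFP shRNA (log2 -0.59 ± 0.12, adjusted p = 0.00179), as did Irf3 (-0.43 ± 0.15, adjusted p = 0.0352). The Irf3 call was lost without GFP array 1, 2 or 5 or Jnk1 array 2 or 5 (-0.53 to -0.34, adjusted p up to 0.105) and gave -0.22 (adjusted p = 0.303) with arrays scaled to a common median. Tlr3, a receptor for double-stranded RNA, gave 1.43 for GFP shRNA over vehicle (adjusted p = 0.204).

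Of 24 other antiviral effectors tested, 13 rose and 2 fell with Jnk1 shRNA over vehicle, where 18.9% of all tested probe sets were called higher and 18.7% lower. With GFP shRNA over vehicle 11 rose and 0 fell (2.05% and 0.53% over all). Between the viruses 4 rose and 4 fell, with a median of -0.06, and these counts were close to the shares over all (17.3% and 15.8%). Oas1a and Oasl2, members of the oligoadenylate synthetase family, rose with GFP shRNA over vehicle by 1.32 ± 0.17 (adjusted p = 0.000345) and 1.82 ± 0.27 (adjusted p = 0.00106). Vehicle values of Oasl2 were 12.1 to 38.8, partly under 28.4, so the size of its fold over vehicle is uncertain. Parp9, a partner in the response of cells to interferon, was the effector that fell most between the viruses. It ranged over 195 to 277 with Jnk1 shRNA, 533 to 712 with GFP shRNA and 301 to 450 with vehicle, so its level relative to vehicle was lower with Jnk1 shRNA and higher with GFP shRNA. Its log2 fold changes were -1.29 ± 0.13 for Jnk1 over GFP shRNA (adjusted p = 2.17e-06), -0.57 ± 0.12 for Jnk1 shRNA over vehicle (adjusted p = 0.00159) and 0.72 ± 0.13 for GFP shRNA over vehicle (adjusted p = 0.00522).

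Parp14, of the same enzyme family, rose with GFP shRNA over vehicle by 1.01 ± 0.19 (adjusted p = 0.00769) and fell between the viruses (-0.59 ± 0.19, adjusted p = 0.0263). The other effectors that fell between the viruses, named after their values were seen, were Samhd1, which breaks down nucleotides that viruses need, and Ifitm1, which hinders viral entry. Those that rose were Isg20, an exonuclease (0.71 ± 0.18, adjusted p = 0.00566), Trim25, a ubiquitin ligase of RNA sensing (0.36 ± 0.10, adjusted p = 0.0128), Ifitm2 (0.37 ± 0.11, adjusted p = 0.013) and Cmpk2. Once the spike-in signal was added to the model, the calls of Isg20 (0.69, adjusted p = 0.119), Trim25 (0.36, adjusted p = 0.151) and Ifitm2 (0.0011, adjusted p = 0.997) were lost. The Ifitm2 fold went to near 0, while the folds of Isg20 and Trim25 changed little.

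Among 6 tested inhibitors of interferon signalling, 1 fell with Jnk1 against GFP shRNA (15.8% called lower over all) and 1 rose with GFP shRNA over vehicle (2.05% called higher over all). With Jnk1 shRNA over vehicle 1 rose and 1 fell (18.9% and 18.7% over all). Nothing is read from counts of 1 of 6. Ptpn11, a phosphatase, gave -0.31 ± 0.09 with Jnk1 against GFP shRNA (adjusted p = 0.0113), and lost the call once the spike-in signal was added to the model (-0.28, adjusted p = 0.186) or arrays were scaled to a common median (-0.12, adjusted p = 0.492). Trim30a rose with GFP shRNA over vehicle by 1.35 ± 0.23 (adjusted p = 0.00381). Ptpn6, Ptpn2 and Pias1 gave -0.27, -0.34 and -0.12 between the viruses (adjusted p = 0.0816, 0.205 and 0.389), and Ptpn6, Pias1 and Socs3 gave 0.18, 0.17 and -0.50 for GFP shRNA over vehicle (adjusted p = 0.488, 0.454 and 0.733). Of the genes for interferon gamma, its receptor and Irf1, 3 were tested and 0 called in any comparison. Irf1 gave -0.52 (adjusted p = 0.139), Ifngr2 -0.12 (adjusted p = 0.599) and Ifngr1 -0.01 (adjusted p = 0.987) between the viruses, and 0.40, -0.02 and -0.03 for GFP shRNA over vehicle (adjusted p = 0.495, 0.977 and 0.965).

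**Figure D5:**
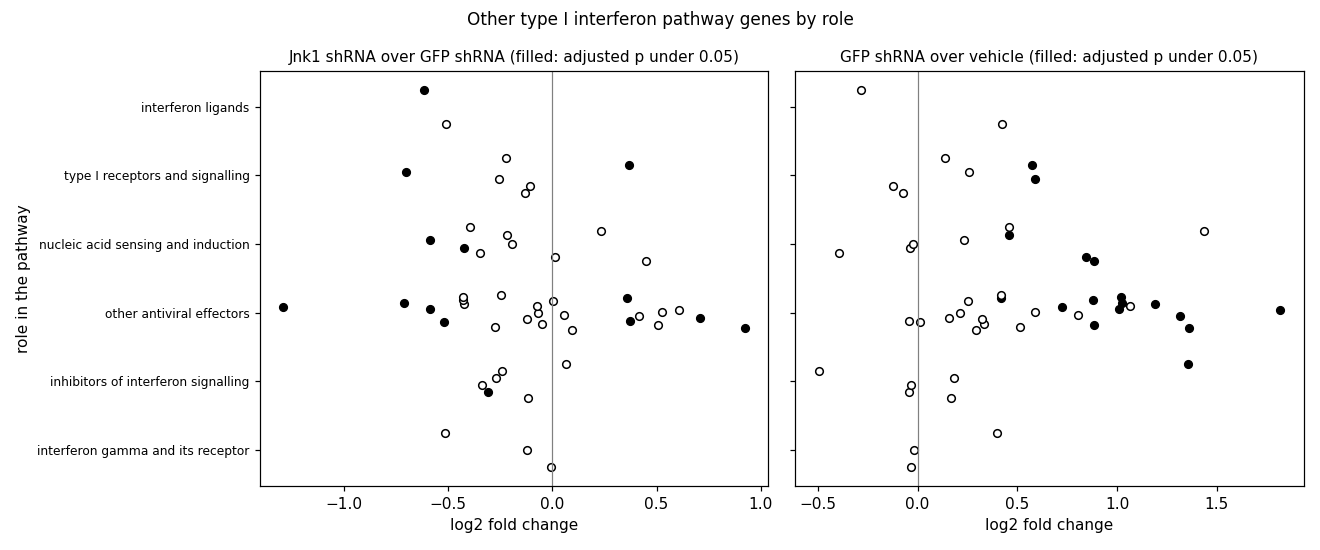
Log2 fold changes of the 50 other tested pathway genes, 1 point per gene, in 6 rows by role; left, Jnk1 over GFP shRNA, and right, GFP shRNA over vehicle, filled where the adjusted p is under 0.05. On the right all 17 filled points lie above 0; on the left 5 filled points lie above 0 and 9 below, with Parp9 at -1.29 the lowest.

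The genes whose array pattern was most like that of the antiviral genes were found over 14 arrays, as the mean absolute difference between a gene's log2 values, relative to vehicle, and the median of the 8 tested members. Over 8019 genes this difference had a median of 1.34. The closest genes were picked by their values on these same arrays. That they were higher than vehicle with both viruses follows from this choice, so their folds describe them and test nothing. The closest was Cmpk2, at 0.198, a nucleotide kinase gene that RefSeq places beside Rsad2 on chromosome 12. It was 2.29 ± 0.26 log2 higher with Jnk1 shRNA than with vehicle (adjusted p = 3.47e-06) and 1.36 ± 0.27 higher with GFP shRNA (adjusted p = 0.0113). Between the viruses Cmpk2 gave 0.93 ± 0.27 (adjusted p = 0.0151), which lost its call without GFP array 1 or 3 (0.75 to 1.27 over all arrays left out, adjusted p up to 0.0578) and with the spike-in signal in the model (adjusted p = 0.090).

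Next came Oas1a (0.293), Gm9706 on a probe set of its own (0.318), Gbp3 (0.376), Ifi27l2b (0.390) and Oasl2 (0.392). The annotation gives the Isg15 probe set to Gm9706 as well, so Gm9706 may share signal with Isg15, which is a member. Ifi27l2b, a small interferon-inducible gene, separated all 3 groups, highest with Jnk1 shRNA and lowest with vehicle, as did Bst2 and Lgals3bp. It was 1.04 ± 0.18 higher with Jnk1 than with GFP shRNA (adjusted p = 0.000352) and 1.04 ± 0.18 higher with GFP shRNA than with vehicle (adjusted p = 0.00391). Gbp3, a guanylate-binding protein gene, was higher than with vehicle under both viruses and was not called between them, with -0.21 ± 0.19 between the viruses (adjusted p = 0.439) and 2.14 and 2.35 over vehicle with Jnk1 and GFP shRNA. Oas1a and Oasl2 gave 0.41 and 0.61 between the viruses (adjusted p = 0.0764 and 0.0939). Gm9706 gave 0.39 ± 0.31 between the viruses (adjusted p = 0.355) and 1.30 ± 0.31 for GFP shRNA over vehicle (adjusted p = 0.0351). That last call was lost without any 1 of vehicle arrays 2 to 5, GFP arrays 2 and 5 and Jnk1 array 5 (1.05 to 1.56 over all arrays left out, adjusted p up to 0.110). Vehicle values of Gm9706 (24.7 to 81.9) and Ifi27l2b (27.1 to 61.8) lie partly under 28.4, so their folds over vehicle are uncertain in size.

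Markers of other liver cell types moved between the groups as well, and their part in the antiviral values was not tested. Of 11 tested Kupffer cell and macrophage markers, 7 fell and 0 rose with Jnk1 against GFP shRNA, where 15.8% of all tested probe sets were called lower, with summed intensities of 3263 to 4040, 5497 to 6323 and 3174 to 5703 in the Jnk1, GFP and vehicle groups. Over vehicle, 0 of these 11 rose and 4 fell with Jnk1 shRNA (18.9% and 18.7% over all, median log2 -0.11). With GFP shRNA 2 rose and 2 fell (2.05% and 0.53% over all, median 0.46). Rsad2, Bst2 and Lgals3bp were higher with Jnk1 than with GFP shRNA, and whether this is linked to the macrophage markers was not tested. Of 6 tested T and NK cell markers, 0 were called between the viruses and 5 rose with Jnk1 shRNA over vehicle (18.9% over all), with sums of 432 to 500, 303 to 472 and 206 to 271, and Cd3e, Cd3d, Cd3g, Cd8a, Cd4 and Klrd1 lay below the filter. Among 4 plasmacytoid dendritic cell markers, only Ly6d was tested, and their sums were 121 to 237, 88.9 to 131 and 56.2 to 108. Ly6d was called higher than with vehicle under Jnk1 shRNA (log2 2.64) and GFP shRNA (1.82), and was not called between the viruses (0.82). The 1 tested B cell marker was not called, with sums of 89.2 to 133, 118 to 155 and 111 to 121. Of 4 neutrophil and monocyte markers 1 fell between the viruses, with sums of 232 to 302, 242 to 449 and 202 to 338. Of 6 endothelial markers 3 fell between the viruses, with sums of 679 to 801, 892 to 1086 and 1023 to 1073. Of 7 hepatocyte markers 2 fell between the viruses. With Jnk1 shRNA over vehicle, 4 of the 6 endothelial and 4 of the 7 hepatocyte markers fell and 0 rose, where 18.7% of all were called lower. With GFP shRNA over vehicle, 1 T and NK cell marker and 1 neutrophil and monocyte marker rose (2.05% over all). In that comparison 1 endothelial and 1 hepatocyte marker fell (0.53% over all), and nothing is read from these counts of 1. With lists this short and 15.8% of all called lower, nothing is read from 1 of 4, 2 of 7 or 3 of 6.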

How the data were processed

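Liver RNA was measured on a 1-colour Affymetrix mouse array, 1 array per sample; per the labels' protocols, total RNA was biotin labelled. The authors deposited linear intensities per probe set, already scaled, since the mean of each array without the outer 2% at either end was 150.05 or 150.06, with software not given in the sources used here. Array medians spanned 0.48 log2, so the intensities were quantile normalized, floored at their 5th percentile (2.01) and log2 transformed. The 64 control probe sets and the 40% of the other 22626 with the lowest means were left out, leaving 13575. Symbols came from the platform annotation, and 20393 probe sets had 1 symbol. One fit of 3 group means to 14 arrays was made with limma 3.58.1 in R 4.3.3 (intensity trend, 11 residual degrees of freedom), with Benjamini-Hochberg adjustment over 13575 probe sets. A gene with several probe sets was represented by the brightest tested one, except members, of which all are given. The number of arrays limits the precision, and no batch is recorded in the labels or files. The members and lists were chosen with earlier results of these data known. Named genes are all members, Mapk8, up to 4 genes per list with the smallest p between the viruses and for GFP shRNA over vehicle, and the 6 most like the members. Other scalings, filters, a pseudocount of 16, variance models, array weights, fits of 2 groups, the replicate number as a block, the mean spike-in signal in the model and leaving out each array were tried. The fit was tested on simulated data. Genes with close copies, such as the Ifit and Oas families, may share signal, as may Isg15 and Gm9706.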

Additional observations from a re-analysis of the deposited data

How the results depend on the processing

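The number of member probe sets called between the viruses was 4 to 6 over 9 other settings, and 5 to 7 when 1 array was left out (7 without GFP array 2). Against vehicle it was 11 or 12 with Jnk1 shRNA (11 whichever array was left out) and 7 to 10 with GFP shRNA (8 to 10 with 1 array left out). Of 828 member values under alternatives, which include the probe set shared by Isg15 and Gm9706, 792 kept direction and side of the threshold. Another 26 lost a call, 8 gained one and 2 changed sign. Both sign changes were between the viruses: Irf7 with the spike-in signal in the model (-0.13) and Ifit3 with 1 array left out (-0.052 to 0.67). Of 1403 values of other named genes, 1288 were kept, 78 lost a call, 15 gained one and 22 changed sign. Among these, Pias1 (0.05) and Ifngr1 (0.15) changed sign between the viruses with arrays scaled to a common median, Ifngr1 with array weights (0.0021), and Irf9 (0.032) and Ifngr2 (0.023) with the spike-in signal in the model. For GFP shRNA over vehicle, Ifngr2 (0.056) and Ifngr1 (0.019) changed sign on arrays as deposited, and Ifngr1 with array weights (0.018). Leaving out 1 array gave Ifngr1 -0.23 to 0.10 between the viruses, and for GFP shRNA over vehicle Ifngr2 -0.14 to 0.092, Ifngr1 -0.14 to 0.19 and Socs3 -0.97 to 0.041. The cause of these changes was not tested. Over all probe sets, calls between the viruses numbered 4497, of which 52.3% were higher, and 4121 with 72.2% higher when arrays were scaled to a common median, which shifted the median of all probe sets by 0.10 between the viruses, a shift that the folds given under that scaling contain. With the spike-in signal in the model there were 2172 calls between the viruses and 2858 for Jnk1 shRNA over vehicle, against 5099. Because that signal was lower on Jnk1 arrays, these fits cannot fully tell it apart from the Jnk1 virus. For GFP shRNA over vehicle there were 350, and 209 in the fit of 2 groups, 198 to 381 with 1 array left out (198 without GFP array 5).

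The replicate numbers showed no clear pairing of the arrays, though this check cannot exclude one. Deviations of same-numbered arrays correlated at -0.24 to 0.12 over 13 pairs (median 0.04). Those of differently numbered arrays correlated at -0.15 to 0.30 (median -0.01), and 5 of 14 arrays correlated best with their own number. With the replicate block, 5, 11 and 7 member probe sets were called between the viruses, for Jnk1 shRNA over vehicle and for GFP shRNA over vehicle. For GFP shRNA over vehicle, the block left Lgals3bp at 0.67 (adjusted p = 0.052), Usp18 at 1.43 (adjusted p = 0.068) and the Rsad2 probe set 1421009_at at 1.57 (adjusted p = 0.096), and Ifngr2 changed sign (0.023). It also ended the calls of Stat2, Irf9, Dhx58 and Gm9706 over vehicle and of Ifna2 between the viruses. Intensities without detection calls give no bound on background, so folds against vehicle values under 28.4 are uncertain in size. Such values occurred, among others, in Ifit2, both probe sets of Zbp1, Oasl2, Gm9706 and Ifi27l2b.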
